A study of Mus musculus with 7 samples.

Results

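The 9 genes described here encode transcription factors of heart muscle and its neighbouring cells: Gata4, Gata6, Nkx2-5, Tbx5, Tbx20, Mef2a, Mef2c, Mef2d and Hand2. They were chosen by name, and all 9 had a row among the 23420 genes of the table and passed the filter on low counts that left 15258 genes for testing. RNA of flash-frozen cardiac ventricle, labelled elsewhere as whole heart, was sequenced as total RNA from 7 samples of untreated mice aged 3 to 6 weeks. The 4 control hearts were Ctla4+/+;Pdcd1-/- and the 3 ICI-myocarditis hearts, which model the heart inflammation caused by immune checkpoint inhibitors (ICI), were Ctla4+/-;Pdcd1-/-. The groups therefore shared the loss of Pdcd1, which encodes the checkpoint receptor PD-1, and differed by label in 1 copy of Ctla4, which encodes the checkpoint receptor CTLA-4. No group carried the intact Pdcd1 gene, and no cell type restriction of either allele is named. The labels do not say which animal each sample came from, so p-values measure the spread between these libraries.

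GATA4 and GATA6 are zinc-finger factors, NKX2-5 is a homeodomain factor, TBX5 and TBX20 carry a T-box, MEF2A, MEF2C and MEF2D carry a MADS box, and HAND2 is a basic helix-loop-helix factor. In the embryo they build the heart together, often by binding the same enhancers, and in the adult ventricle they keep up the transcription of contractile, conduction and natriuretic peptide genes. Several are not restricted to muscle cells: Gata4, Gata6, Tbx20 and Hand2 are also known from cardiac fibroblasts or the epicardium, and Mef2c from endothelium and macrophages. The activity of MEF2 proteins is set mostly after translation, by class IIa histone deacetylases that hold them silent and by kinases that export those deacetylases from the nucleus.

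Values below are normalized counts, that is, reads of a gene after division by the size factor of its library. Libraries held between 20931730 and 39037176 reads, of which the 9 genes together took between 0.0778% and 0.101%, so counting error was small beside the spread between libraries. Every cardiomyocyte marker of a list of 15 was abundant in all 7 libraries, and none was at 0. Control 2 stood apart from the other controls. Its summed T cell markers reached 1863 normalized counts against 185 to 299 in the other controls and 7849 to 11972 in ICI-myocarditis, and its summed cardiomyocyte markers were the lowest of the controls. Fold changes that moved by over 1.5 times without it are given with both values.

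Regulatory sequence upstream of the MEF2 genes and of Hand2 is shown because the MEF2 genes include the members with the least overlap between groups and Hand2 is the member that varied most. Each window covers the 250 bases before an annotated start, from RefSeq on build GRCm38.p6, read 5′ to 3′ on the strand of the gene. Capitals mark any match, on either strand, to AGATAA (the GATA motif), AAGTG (the NKX2 core), AGGTGT (the T-box core), CANNTG (the E-box bound by HAND2 and related factors, which may overlap the NKX2 core) or the MEF2 consensus.
Mef2a, chr7:67372859-67373108, minus strand: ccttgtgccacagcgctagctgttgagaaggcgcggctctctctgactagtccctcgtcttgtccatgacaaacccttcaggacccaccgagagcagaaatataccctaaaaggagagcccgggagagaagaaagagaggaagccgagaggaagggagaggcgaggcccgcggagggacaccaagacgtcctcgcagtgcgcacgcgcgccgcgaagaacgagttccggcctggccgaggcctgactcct
Mef2c, chr13:83503784-83504033, plus strand, the first of 3 annotated starts: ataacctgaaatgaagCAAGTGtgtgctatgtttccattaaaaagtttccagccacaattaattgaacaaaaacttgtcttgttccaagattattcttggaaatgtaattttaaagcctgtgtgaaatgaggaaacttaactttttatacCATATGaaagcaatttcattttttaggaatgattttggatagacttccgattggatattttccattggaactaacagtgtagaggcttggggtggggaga
Mef2d, chr3:88142122-88142371, plus strand: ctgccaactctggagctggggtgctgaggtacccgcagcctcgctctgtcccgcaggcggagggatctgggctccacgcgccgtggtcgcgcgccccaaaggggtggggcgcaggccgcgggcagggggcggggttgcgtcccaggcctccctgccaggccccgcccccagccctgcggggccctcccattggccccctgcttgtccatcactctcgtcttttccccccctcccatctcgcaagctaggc
Hand2, chr8:57320733-57320982, plus strand: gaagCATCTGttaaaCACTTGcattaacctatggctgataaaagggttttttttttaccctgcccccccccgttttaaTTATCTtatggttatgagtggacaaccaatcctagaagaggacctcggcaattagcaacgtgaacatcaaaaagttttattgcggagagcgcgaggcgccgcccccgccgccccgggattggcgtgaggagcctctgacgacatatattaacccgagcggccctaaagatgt
The windows of Mef2a and Mef2d held 61.6% and 73.2% G or C and no match to any of the 5 motifs. The window of Mef2c held 33.6% G or C, with 1 NKX2 core that lies within 1 of its 2 E-boxes. The window of Hand2 held 1 GATA motif, 1 NKX2 core and 2 E-boxes, of which 1 again overlaps the NKX2 core. Among 32851 annotated windows of the same length, 9.99% held the GATA motif, 40.7% the NKX2 core, 11.8% the T-box core, 66.2% an E-box and 2.92% the MEF2 consensus. Sequences were matched for 6 of the 9 members.

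Levels of different genes were compared per kilobase of exon, using the exon length of the GENCODE M21 basic set on GRCm38. In controls Nkx2-5 and Gata4 were highest, at 1139 ± 487 and 1112 ± 219 normalized counts per kilobase (SD, n = 4), and these neighbours did not differ beyond their spread. Gata6 (810 ± 249), Hand2 (780 ± 486), Mef2a (772 ± 108), Mef2d (683 ± 121) and Tbx20 (628 ± 186) followed with ranges that overlapped. Mef2c lay at 441 ± 39.5 per kilobase, and Tbx5 was lowest at 213 ± 65.7, where its highest control (290) was below the lowest control of Mef2c (408). In ICI-myocarditis Nkx2-5 and Gata4 were again the first and the second, at 1027 ± 223 and 822 ± 87.6 (SD, n = 3). Tbx20 was the third at 672 ± 138, but its range (561 to 826) overlapped those of Gata4, Gata6, Mef2a, Mef2d and Hand2. Mef2c and Tbx5 were again the lowest, at 297 ± 48.3 and 184 ± 66.1, and the range of Mef2c (256 to 350) overlapped that of Hand2 (314 to 775). With the longest transcript as the length, Gata4 and Nkx2-5 exchanged places in controls, as did Mef2a and Hand2.

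**Figure D1:**
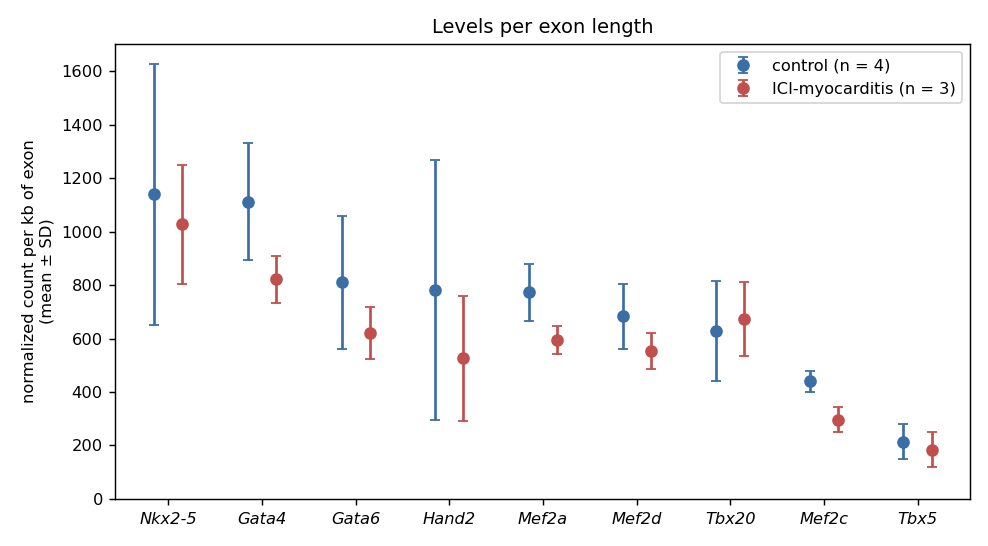
Mean normalized count per kilobase of exon (vertical axis, bars show SD) for the 9 genes in control (n = 4) and ICI-myocarditis (n = 3) hearts, ordered by the control mean. The wide bars of Nkx2-5 and Hand2 in controls contrast with the narrow bars of Mef2c, and Tbx5 is lowest in both groups.

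The comparison between ICI-myocarditis and control hearts asks whether transcripts of these regulators differ in the inflamed ventricle. By limma, 0 of the 9 genes had an adjusted p-value under 0.05, where 15.7% of all genes tested passed in either direction and 4.00% passed as lower. Mef2c was the only member with an unadjusted p under 0.05, a level that 30.1% of tested genes reached. On the same libraries edgeR's test of recovered reads called 0 of the 9 members (14.0% of all genes). DESeq2 and limma-voom with quality weights each called 1, which was Mef2c in both, against 22.6% and 26.5% of all genes. The log2 fold change was below 0 for 8 of the 9 members, with a median of -0.34, against 51.9% of tested genes below 0 and a median of -0.02 over all of them. The 15 cardiomyocyte markers, of which 0 passed limma's threshold and 2 had an unadjusted p under 0.05, had a median of -0.73 and all lay below 0. Without control 2 all 9 members lay below 0, with a median of -0.45, and the markers had a median of -1.07. With any other library left out, 7 or 8 members lay below 0. Their median then ran from -0.41 (without ICI-myocarditis 2) to -0.20 (without control 1). The marker median ran from -0.87 (without ICI-myocarditis 1) to -0.47 (without ICI-myocarditis 3). Scaling by library size only and limma-voom gave members' medians of -0.18 and -0.13, with 7 below 0 in each. With edgeR and DESeq2 the members' median was -0.38. In bulk tissue, fewer cells of a type and less RNA per cell cannot be told apart.

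**Figure D2:**
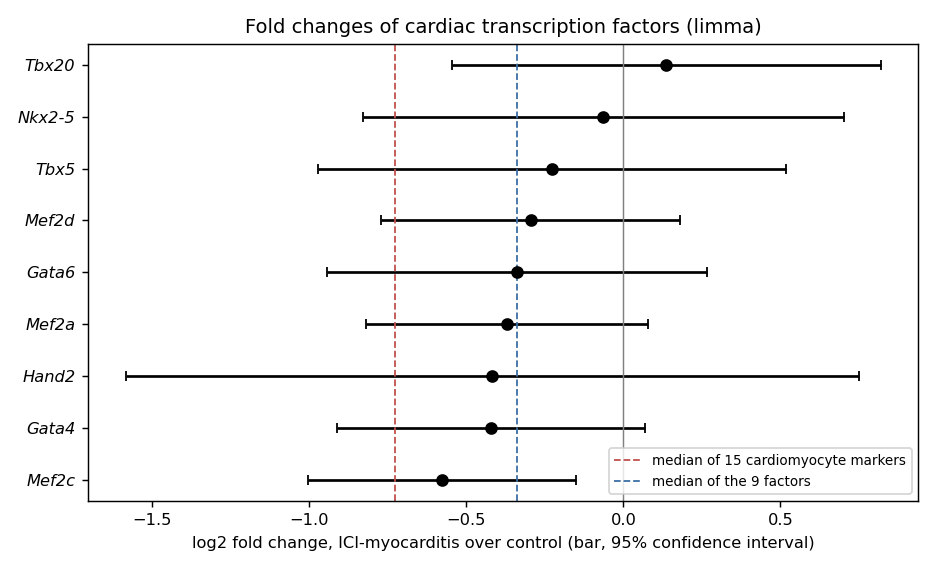
Log2 fold change of each factor, ICI-myocarditis over control, with its 95% confidence interval (limma). The interval of Mef2c alone lies wholly below 0, and the dashed lines mark the medians of the 9 factors (-0.34) and of 15 cardiomyocyte markers (-0.73).

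Of the 9 members, Mef2c had the lowest p-value, and Mef2c and Mef2a alone had groups that did not overlap. Mef2c (chromosome 13, 83504034 to 83667080, plus strand), needed for the second heart field in the embryo, had 3053, 2979, 3625 and 3219 normalized counts in controls 1 to 4 and 1869, 2558 and 2078 in ICI-myocarditis 1 to 3. Every ICI-myocarditis heart lay below every control. The means of 3219 ± 288 (SD, n = 4) and 2169 ± 353 (SD, n = 3) gave a log2 fold change of -0.58 (SE 0.189, 95% confidence interval -1.004 to -0.152), with a limma adjusted p of 0.0699. This missed the threshold, and the adjusted p ran from 0.0232 with DESeq2 to 0.288 with the replicate number as a block over 17 alternative analyses. In the authors' deposited table Mef2c had a log2 fold change of -0.57 and an adjusted p of 0.0297, the only member below 0.05 there. The share of all genes below 0.05 there was not counted, and DESeq2 on recovered reads called 22.6% of the genes tested.

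Mef2a (chromosome 7, 67231163 to 67372858, minus strand), known as a main MEF2 gene of the adult heart, had 4079, 3691, 4879 and 4946 normalized counts in the controls and 3050, 3634 and 3469 in ICI-myocarditis. The groups did not overlap, but ICI-myocarditis 2 lay only just below control 2. Mef2a had a log2 fold change of -0.37 (with an SE of 0.199 and an adjusted p of 0.249 by limma). Mef2d (chromosome 3, 88142372 to 88172086, plus strand), linked to stress-induced growth of heart muscle, had 4730, 3592, 3219 and 4435 in controls and 2941, 3671 and 3078 in ICI-myocarditis. The groups overlapped, since ICI-myocarditis 2 exceeded controls 2 and 3. For Mef2d it was -0.30 (with an SE of 0.212 and an adjusted p of 0.393 by limma). Exons of Mef2d share 8.42% of their length with the antisense gene 1700113A16Rik, whose own row lay between 281 and 475 normalized counts, and the use of strand in counting is not given in the sources used here. Mef2a and Mef2c were the 2 members whose groups did not overlap, where 28.6% of all genes tested showed no overlap and 11.3% showed none with ICI-myocarditis lower.

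The make-up of the MEF2 family was compared as the share of each gene within a library, which does not depend on the size factor. Mef2a made up 37.8% ± 3.25 of their summed normalized counts in the controls and 38.6% ± 1.69 in ICI-myocarditis, Mef2d 34.4% ± 5.13 and 36.8% ± 0.947, and Mef2c 27.8% ± 2.62 and 24.6% ± 1.16. The share of Mef2c was 25.7%, 29.0%, 30.9% and 25.5% in controls and 23.8%, 25.9% and 24.1% in ICI-myocarditis, so ICI-myocarditis 2 lay within the control range. None of the 3 shares differed beyond the spread of libraries (exact two-sided permutation p = 0.743, 0.571 and 0.171 for Mef2a, Mef2d and Mef2c, adjusted over 3 shares 0.743, 0.743 and 0.514). The smallest p that the 35 splits of 7 libraries allow is 0.0286. These tests do not show that Mef2c fell more than its paralogs.

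Gata4 (chromosome 14, 63198922 to 63271692, minus strand), a direct activator of natriuretic peptide and myosin genes, had 4529, 3133, 3665 and 4882 normalized counts in the controls and 2682, 3319 and 2978 in ICI-myocarditis. Of the ICI-myocarditis hearts, 2 lay below all controls and ICI-myocarditis 2 lay above control 2. Gata4 had a log2 fold change of -0.42 (SE 0.218, 95% confidence interval -0.91 to 0.07, limma adjusted p = 0.232), and without control 2 it was -0.54 (limma adjusted p = 0.100). Gata6 (chromosome 18, 11052064 to 11085635, plus strand), which overlaps in function with Gata4, had 3394, 1747, 2129 and 3208 in controls and 2328, 2005 and 1702 in ICI-myocarditis. ICI-myocarditis 3 lay just below the lowest control and the other ICI-myocarditis hearts lay inside the control range. The log2 fold change of Gata6 was -0.34 (with an SE of 0.268 and an adjusted p of 0.445 by limma). It was -0.52 without control 2, and -0.20, -0.22 and -0.22 without control 1, control 4 or ICI-myocarditis 3. The log2 ratio of Gata4 to Gata6 counts was 0.66 ± 0.19 in controls and 0.58 ± 0.33 in ICI-myocarditis, a difference within the spread (exact two-sided permutation p = 0.657). It was lowest in ICI-myocarditis 1, at 0.20, and highest in control 2, at 0.84.

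Nkx2-5 (chromosome 17, 26838664 to 26845009, minus strand), a factor of early heart specification and of the conduction system, had 2491, 998, 1209 and 2250 normalized counts in the controls and 1433, 1952 and 1310 in ICI-myocarditis. All ICI-myocarditis hearts lay inside the control range, between the low pair of controls 2 and 3 and the high pair of controls 1 and 4. Its log2 fold change was -0.06 (SE 0.340, 95% confidence interval -0.83 to 0.70, limma adjusted p = 0.925), and its sign turned in 6 of 17 alternatives. Of these, the replicate number as a block and leaving out control 4 gave the same value, 0.10. Without control 2 the log2 fold change of Nkx2-5 was -0.30. Hand2 (chromosome 8, 57320983 to 57324633, plus strand), a factor of the right ventricle and of epicardial cells, had 2929, 893, 802 and 2710 in controls and 1821, 1149 and 738 in ICI-myocarditis. Its controls again formed a high pair and a low pair, 3.65-fold apart from highest to lowest. Hand2 had a log2 fold change of -0.42 (with an SE of 0.518 and an adjusted p of 0.644 by limma), with the widest 95% confidence interval of the 9 members, from -1.58 to 0.75. It was -0.68 without control 2, -0.73 without control 3 and -0.75 without ICI-myocarditis 1, but -0.11, -0.15 and -0.09 without control 1, control 4 or ICI-myocarditis 3. The antisense transcript Hand2os1 shares 19.6% of the exon length of Hand2 and had no row of its own, so reads of both may be joined.

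The split of the controls ran through several members. In 5 of the 9, namely Gata4, Gata6, Nkx2-5, Mef2d and Hand2, the highest libraries of all 7 were controls 1 and 4, a pattern looked for after the values were seen. It was found in 13.0% of tested genes and in 10 of the 15 cardiomyocyte markers. Controls 1 and 4 were also the controls with the most reads, 32567278 and 29869948, against 20931730 and 26692546 in controls 2 and 3. They did not have the most of all 7, since ICI-myocarditis 1 to 3 held 27948525, 39037176 and 35139534. The summed cardiomyocyte markers of controls 1 and 4 were 5535400 and 6204400 normalized counts, against 2846100 and 4614600 in controls 2 and 3. The part of these in the split was not tested. The coefficient of variation over the controls was 62.3% for Hand2, 42.8% for Nkx2-5 and 8.96% for Mef2c, and its median was 29.6% over the members and 23.8% over 7948 genes with a mean of at least 500 normalized counts.

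**Figure D3:**
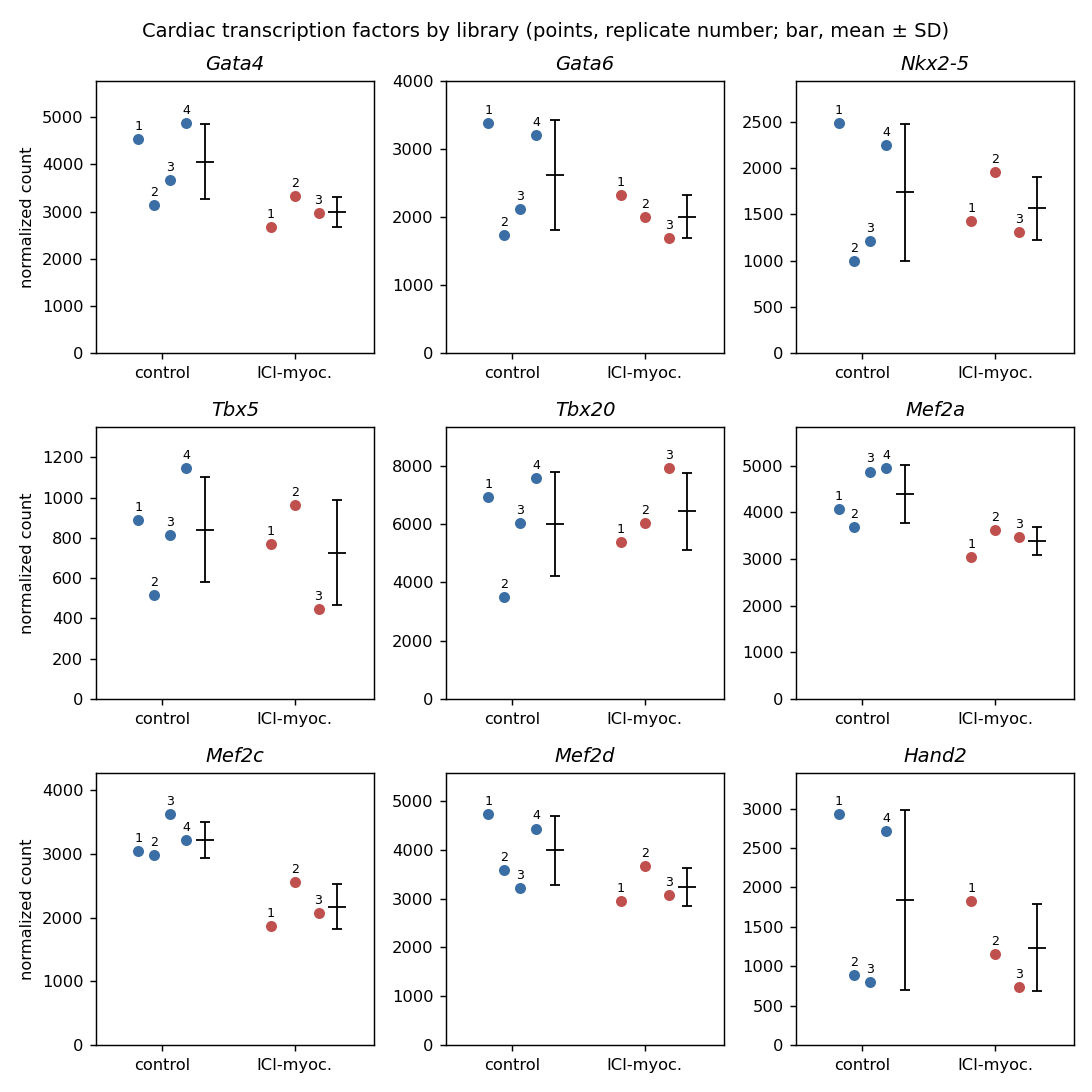
Normalized count of each factor in every library (vertical axis from 0), with points numbered by replicate and bars giving mean ± SD for control (n = 4) and ICI-myocarditis (n = 3). Mef2a and Mef2c separate the groups, whereas controls 1 and 4 lie above controls 2 and 3 for Hand2 and Nkx2-5.

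Groups overlapped for both T-box genes. Tbx5 (chromosome 5, 119832668 to 119885219, plus strand), the gene of Holt-Oram syndrome, had 889, 516, 816 and 1145 normalized counts in the controls and 767, 962 and 446 in ICI-myocarditis. ICI-myocarditis 3 was the lowest of the 7 and the others lay inside the control range. Its log2 fold change was -0.23 (with an SE of 0.330 and an adjusted p of 0.697 by limma), and it was 0.09 without ICI-myocarditis 3, -0.44 without control 2, -0.47 without ICI-myocarditis 2 and -0.06 without control 4. Tbx20 (chromosome 9, 24718138 to 24774303, minus strand), needed for the upkeep of adult heart muscle, had 6929, 3506, 6049 and 7559 in controls and 5370, 6016 and 7905 in ICI-myocarditis. Of the 9 members only Tbx20 had a higher mean in ICI-myocarditis than in controls, and its highest library was ICI-myocarditis 3 and its lowest control 2. For Tbx20 the log2 fold change was 0.14 (SE 0.303, 95% confidence interval -0.55 to 0.82, limma adjusted p = 0.809). It was -0.10 without control 2 and -0.02 without ICI-myocarditis 3.

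Because the log2 fold changes of all 15 cardiomyocyte markers lay below 0, each factor was also set against the mean log2 level of the 15 cardiomyocyte markers in the same library. That mean was 16.98 ± 0.54 in controls and 16.21 ± 0.49 in ICI-myocarditis. For Tbx5 the log2 level minus this mean was -7.30, -7.25, -7.30 and -7.40 in controls and -6.89, -6.60 and -6.84 in ICI-myocarditis. The 4 controls thus had an SD of 0.060, although their Tbx5 counts spanned 2.22-fold, and the 3 ICI-myocarditis hearts all lay above them, by 0.54 on average. For Tbx20 it was -4.34, -4.49, -4.41 and -4.67 in controls and -4.09, -3.95 and -2.69 in ICI-myocarditis. These values did not overlap either, with a mean difference of 0.90 that was 0.46 without ICI-myocarditis 3. Both genes reached the smallest exact two-sided permutation p the design allows, 0.0286, and neither passed adjustment over the 9 members (adjusted p = 0.129). With that floor, no member could pass unless most of the 9 reached it.

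The same difference was 0.70 for Nkx2-5 (exact permutation p = 0.0857, adjusted 0.257) and lay between 0.19 (Mef2c) and 0.47 (Mef2d) for the other 6 members, with adjusted p from 0.321 to 0.657. Groups of the relative level did not overlap, with ICI-myocarditis higher, for 2 of the 9 members, where 25.8% of all genes tested did so. A difference above 0 was found for all 9 members and for 89.1% of tested genes, which follows from subtracting a marker mean that was 0.77 lower in ICI-myocarditis. The sign for Mef2c turned without control 4 (-0.0057) and without ICI-myocarditis 3 (-0.073). Without ICI-myocarditis 3 the difference was 0.060 for Gata4, 0.090 for Mef2a, 0.26 for Gata6 and 0.22 for Mef2d, and without control 3 it was 0.033 for Hand2.

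**Figure D4:**
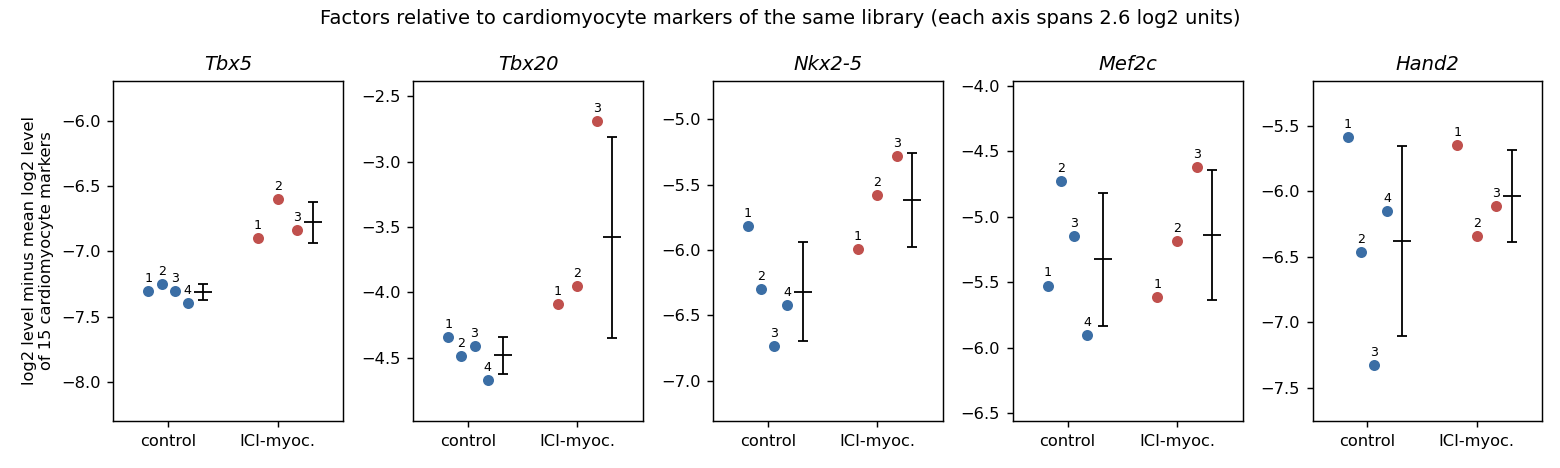
Log2 level of 5 factors minus the mean log2 level of 15 cardiomyocyte markers in the same library, with points numbered by replicate and bars giving mean ± SD for control (n = 4) and ICI-myocarditis (n = 3). The control points of Tbx5 have an SD of 0.060 and lie below all 3 ICI-myocarditis points, and those of Hand2 are widely spread.

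Other regulators of the heart were read from a list of 20 genes, which included further GATA, HAND, T-box and Iroquois factors, cofactors such as Myocd and Zfpm2, and the serum response factor Srf. Of the 17 tested, 1 passed as lower and 0 as higher, where 4.00% and 11.7% of all genes did so, with a median log2 fold change of -0.29. The called gene was Prox1, a homeobox factor of muscle and lymphatic endothelium, with 2933, 1464, 2441 and 3343 normalized counts in the controls and 998, 1565 and 1045 in ICI-myocarditis. Control 2 lay inside the ICI-myocarditis range. Prox1 had a log2 fold change of -1.05 (with an SE of 0.303 and an adjusted p of 0.0461 by limma). It passed in 9 of 17 alternatives and missed the threshold when any library other than control 2 was left out (largest adjusted p 0.161, without ICI-myocarditis 3). Prdm16, a zinc-finger factor of ventricular compaction, had a log2 fold change of -0.89 with groups that did not overlap (with an SE of 0.284 and an adjusted p of 0.0650 by limma), and passed with DESeq2 (0.0357) and without ICI-myocarditis 2 (adjusted p 0.0451).

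Of 12 genes that control MEF2 proteins, 2 passed, both lower, where 4.00% of all genes tested passed as lower and 15.7% in either direction. The median log2 fold change over the list was -0.12. Prkd1, which encodes protein kinase D1, a kinase that drives class IIa histone deacetylases out of the nucleus, had 479, 540, 396 and 489 normalized counts in the controls and 192, 148 and 141 in ICI-myocarditis. The highest ICI-myocarditis heart reached less than the lowest control. Prkd1 fell by 1.57 (log2, with an SE of 0.214 and an adjusted p of 0.00365 by limma) and passed in all 17 alternatives. Hdac9, which encodes one such deacetylase, had 1360, 1482, 1466 and 1533 in controls and 783, 908 and 728 in ICI-myocarditis. It fell by 0.86 (with an SE of 0.168 and an adjusted p of 0.00986 by limma), a call lost with the replicate number as a block (limma adjusted p = 0.0795). Summed markers of endothelium lay between 39094 and 99405 normalized counts in the controls and between 29630 and 37967 in ICI-myocarditis, with 4 of 12 markers called lower and none at 0. The part of that list in these falls was not tested.

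**Figure D5:**
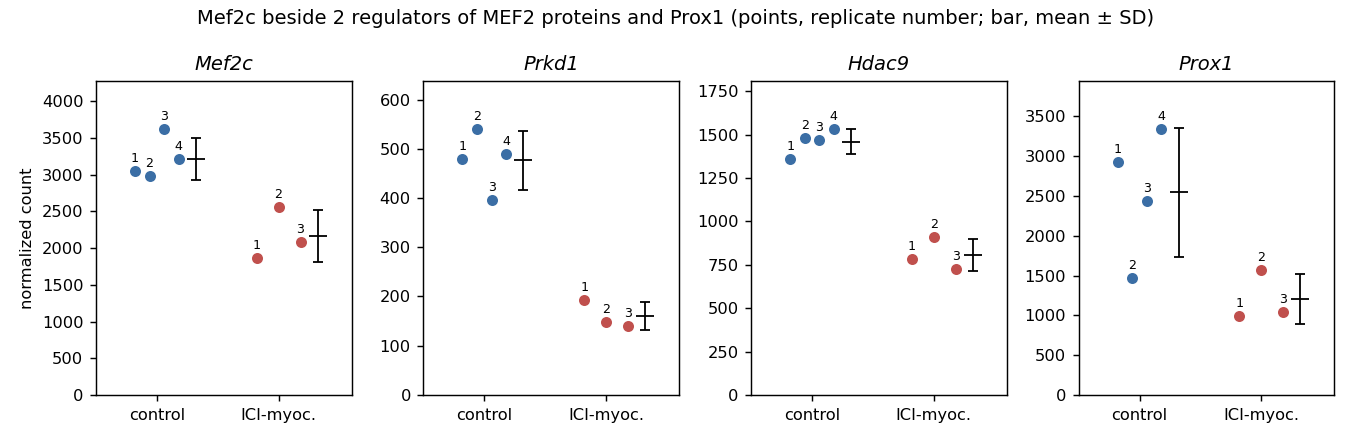
Normalized counts by library (vertical axis from 0) for Mef2c, for Prkd1 and Hdac9, which regulate MEF2 proteins, and for Prox1, with points numbered by replicate and bars giving mean ± SD (control n = 4, ICI-myocarditis n = 3). Groups do not overlap for Mef2c, Prkd1 and Hdac9, while for Prox1 control 2 falls among the ICI-myocarditis hearts.

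Genes known as direct targets of these factors were read from a list of 18. Of these, 2 passed as higher and 1 as lower, a share near the 15.7% over all genes tested, and the median log2 fold change was -0.49. The 2 that rose were the natriuretic peptide genes Nppa (log2 fold change 3.595, with an SE of 0.460 and an adjusted p of 0.00316 by limma) and Nppb (1.597, with an SE of 0.383 and an adjusted p of 0.0228 by limma), and the call of Nppb was lost without control 1, control 3, ICI-myocarditis 1 or ICI-myocarditis 3 (largest adjusted p 0.0656). The 1 that fell was Ckm, the muscle creatine kinase gene and a MEF2 target, with a log2 fold change of -1.68 (with an SE of 0.457 and an adjusted p of 0.0374 by limma), and it held in 11 of 17 alternatives (largest adjusted p 0.149, without ICI-myocarditis 3). The list shares 7 genes with the cardiomyocyte markers, and its 11 other genes had a median of -0.30. Nppa had 8778, 6717, 6265 and 6420 normalized counts in the controls and 89307, 38489 and 174570 in ICI-myocarditis.

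Markers of other cardiac cells, some of which hold these factors, were summed in each library. Fibroblast markers summed to between 59786 and 90820 normalized counts in the controls and between 140660 and 201790 in ICI-myocarditis, with 4 of 10 called higher. Macrophage markers summed to between 15449 and 22651 and between 72891 and 113580, with all 11 tested called higher. Epicardial markers overlapped, at 489 to 1727 and 494 to 1419, with 0 of 6 called by limma and 0 at an unadjusted p under 0.05. None of the fibroblast, macrophage, epicardial, mural or endothelial markers with a row was at 0 in all libraries. Mural markers, of pericytes and smooth muscle, summed to between 57790 and 81176 in controls and between 27760 and 38293 in ICI-myocarditis, with 4 of 8 called lower and a median log2 fold change of -0.80. Endothelial markers, whose sums are given above and did not overlap, had a median log2 fold change of -0.92. Cardiomyocyte markers summed to between 2846100 and 6204400 in controls and between 2012700 and 3338700 in ICI-myocarditis. The part of these cells in the levels of the 9 factors was not tested.

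The gene most like each factor was taken as the one with the smallest root-mean-square difference in centred log2 level over the 7 libraries, among 11462 named genes with a mean of at least 100 normalized counts. Gata4 was closest to Fto (0.0360), Mef2a to Akap11 (0.0457), Mef2d to Zfp316 (0.0525), Gata6 to Sbk1 (0.0672), Mef2c to Nfib (0.0707), Tbx20 to Prnp (0.105), Nkx2-5 to Spsb1 (0.117), Tbx5 to Lmod2 (0.129) and Hand2 to Tob2 (0.205). Lmod2 encodes leiomodin 2, an actin filament protein of the sarcomere, and its counts of 14613, 7837, 14224 and 21104 in controls and 13151, 13394 and 7837 in ICI-myocarditis are given for comparison with those of Tbx5 above. Nfib, a transcription factor gene, had 13013, 11519, 13889 and 13436 in controls and 8335, 10520 and 8556 in ICI-myocarditis. Its groups did not overlap, but Nfib was chosen for its closeness to Mef2c, so this is not a separate likeness. Among the members themselves, Gata4 and Mef2d were the closest pair (0.135), followed by Mef2a and Mef2c (0.149), and Hand2 was farthest from its nearest member, Gata6 (0.446).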

How the data were processed

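Per the submitters' processing notes, STAR 2.7.3 and build GRCm38 (mm10) were used. The counting program, annotation and use of strand are not given in the sources used here. The deposited table holds a signal per library, which the authors made by dividing gene read counts by 1 size factor. Dividing by the smallest step gave whole numbers (within 0.001) for 100% of values in all 7 libraries, although the step of control 1 was 1.01. There, 27 gene names had become dates and held 0.143% of reads. Per the file headers it also holds the authors' log2 fold changes, a score (test statistic) and p-values.

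Genes with at least 10 normalized counts in 3 libraries were tested with limma 3.58.1 (R 4.3.3, trend and robust variance) on log2(normalized count + 1), adjusted by Benjamini-Hochberg over all 15258. Fold changes are on that scale and understate changes of low genes. Single measures were compared by exact permutation over 35 splits. Alternatives used edgeR 4.0.16 and DESeq2 1.42.0 on recovered reads. On simulated data limma, edgeR and DESeq2 were checked, with no limit set on the share of wrong calls by DESeq2. Limma-voom with quality weights was not checked in this way.

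The 9 members, the lists and the tests were chosen with earlier results of these data known. Named list genes are those called plus the 2 with the lowest p-value. Same-numbered libraries of the groups are not paired by the labels.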

Additional observations from a re-analysis of the deposited data

How the results depend on the processing

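Over 17 alternatives 0 of the 9 factors were called, except 1 (Mef2c) with DESeq2 and 1 with limma-voom with quality weights. Gata4, Gata6, Mef2a, Mef2c, Mef2d and Hand2 stayed below 0 in all 17, ranging from -0.54 to -0.26, -0.52 to -0.18, -0.45 to -0.21, -0.70 to -0.42, -0.39 to -0.13 and -0.75 to -0.08. The log2 fold change changed sign for Nkx2-5 with scaling by library size only (0.10), limma-voom (0.18) and the replicate block (0.10), for Tbx5 with limma-voom (0.0065) and for Tbx20 with limma-voom (-0.038). Leaving out 1 library gave -0.30 to 0.14 for Nkx2-5, -0.47 to 0.087 for Tbx5 and -0.10 to 0.27 for Tbx20. Called genes numbered 2397, 4038 with limma-voom, and 1080 (without ICI-myocarditis 3) to 3345 (without control 2) with 1 library left out. Scaling by library size moved the median of all genes from -0.02 to 0.13 and the share of calls that were higher from 74.6% to 84.3%. DESeq2 and limma-voom gave shares of 62.8% and 62.0%. The causes were not tested.

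With 1 library left out, the difference in the Mef2a share ran from -0.32 to 2.09 percentage points, in the log2 ratio of Gata4 to Gata6 from -0.20 to 0.11, and in Mef2c relative to cardiomyocyte markers from -0.073 to 0.42 (-0.0057 with the replicate block). Deviations of same-numbered libraries correlated at -0.27, -0.21 and -0.08, which gave no sign that the numbers pair the samples but cannot exclude it. Control 4 has no same-numbered ICI-myocarditis library, so the block gave the same fold changes as leaving out control 4. The block gave 1780 called genes and 0 called members. The lowest normalized count of a factor was 446, and the effect of depth was not tested. Dixon's test on the 4 controls marked 0 of 29 results, where about 1.4 would be marked by chance. With 4 values it marks only a library far from the rest. It does not show that no control stood apart, as control 2 did in its summed T cell markers.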
